A study of Homo sapiens with 6 samples.

Results

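In libraries labelled as HCT8 cells given a KDM4A overexpression plasmid, LIN28B RNA was 27.6% of its control level and HMGA2 RNA was 53.1%. Both percentages are on the scale of counts-per-million (CPM), and values per exon length are given below. Marker genes of cell type also differed widely between the groups, as given below. That every library holds HCT8 rests on the labels. Described here are 10 genes of the LIN28, HMGA2 and oncofetal RNA-binding group, of 60664 genes in the deposited count table: LIN28A, LIN28B, HMGA1, HMGA2, IGF2BP1, IGF2BP2, IGF2BP3, DIS3L2, TUT4 and TRIM71. They were taken by symbol, and each was found once. They were chosen by their CPM difference between the groups in these same libraries, so their values are given as a description, with no test. HMGA1 and HMGA2 are chromatin proteins; the others bind or process RNA.

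RNA was sequenced from 6 libraries whose labels name HCT8, a human line established from a colorectal cancer. The 3 control libraries are labelled WT and came from cells that received a control plasmid, and the other 3 are labelled KDM4A-overexpressing and received a plasmid for KDM4A, a histone lysine demethylase. All 6 carry batch number 1. The labels do not say whether the libraries of a group are separate cultures, so SDs, SEs and p-values cover only the spread between these libraries, which may be technical. Nor do they say how long after transfection the cells were taken, or whether a clone was picked. Library totals were 14284240 to 23905980 counts. KDM4A itself was 44.6 ± 1.56 CPM (SD, n = 3) in the controls and 156 ± 3.89 (n = 3) with the plasmid, a log2 fold change of 1.81 (SE 0.06). Reads from the plasmid and from the cell's own gene are not separated in that count.

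The labelled cell type was set against marker genes. Of 14 colon epithelium markers, KRT20, GPA33, CEACAM5 and TFF3 stayed under 1 CPM in every library, and the other 10 were all higher with the KDM4A plasmid. The summed level of the 14 was 264 to 279.5 CPM in the controls and 3565 to 3819 CPM with the plasmid. EPCAM, an epithelial adhesion molecule, went from 18.7 ± 0.990 to 330.0 ± 17.7 CPM (n = 3 each). A list of 12 markers of embryonic kidney and neural-crest-like lines held kidney development genes, neurofilaments, IRS4 and CDH2. Of these 12, 9 fell and 2 rose, while 38.6% of all tested genes fell and 40.0% rose. The sum of the 12 was 2476 to 2842 CPM in the controls and 527 to 560.3 CPM with the plasmid. IRS4, an insulin receptor substrate, made up most of that sum, at 2148 ± 201 and 323 ± 7.89 CPM. Summed fibroblast markers (8 genes) were 21.1 to 22.2 and 14.2 to 16.7 CPM, leukocyte markers (7 genes) 1.84 to 3.55 and 5.29 to 6.13 CPM, and endothelial markers (5 genes) 0.438 to 0.686 and 0.973 to 1.10 CPM. COL1A2, DCN, PDGFRB, THY1, PTPRC, CD3E, CD68, LYZ and all 5 endothelial markers were under 1 CPM in every library, and no marker was at 0 throughout. The sums of all 5 lists did not overlap between the groups, and their part in the results below was not tested. In bulk RNA, fewer cells of a type and less RNA per cell cannot be told apart. That every library holds HCT8 rests on the labels, and whether both groups are the same line was not tested.

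LIN28 proteins bind the loop of let-7 microRNA precursors in embryonic and some tumour cells and block their maturation. The terminal uridylyltransferase TUT4 can then add uridines to the bound precursor, and the exonuclease DIS3L2 degrades the tailed RNA. Whether these steps take place with LIN28B in the cells sequenced here was not tested. Mature let-7 in turn pairs with the 3′UTRs of LIN28B, HMGA2, the IGF2BP genes and TRIM71, which makes LIN28 and let-7 a mutual repression loop. The oncofetal name refers to genes that are active in the embryo, mostly silent in adult tissue and active again in tumours.

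Most of these genes, but not all, hold a 3′UTR match to the let-7 seed, bases 2 to 8 of the mature RNA. In RefSeq's microRNA table for GRCh38.p14, 12 family genes give 9 distinct 5p names, and all 9 carry the seed GAGGUAG. They are shown 5′ to 3′ because they differ after the seed and not in it (seed in capitals).
hsa-let-7a-5p: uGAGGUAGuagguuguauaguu
hsa-let-7b-5p: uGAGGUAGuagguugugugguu
hsa-let-7c-5p: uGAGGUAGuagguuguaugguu
hsa-let-7d-5p: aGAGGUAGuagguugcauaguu
hsa-let-7e-5p: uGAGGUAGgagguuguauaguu
hsa-let-7f-5p: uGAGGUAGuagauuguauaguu
hsa-let-7g-5p: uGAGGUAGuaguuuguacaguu
hsa-let-7i-5p: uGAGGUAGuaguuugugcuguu
hsa-miR-98-5p: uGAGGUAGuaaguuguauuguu

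LIN28 is known to favour precursors that hold the letters GGAG in the loop. Of the 12 family hairpins, 9 hold GGAG on the strand given, beside 43.4% of all 1562 human hairpins in the table. Those of MIRLET7A3, MIRLET7B and MIR98 do not. A hairpin with the letters (capitals) and one without them are shown for comparison, MIRLET7G at chr3:52268278-52268361 (minus strand) and MIRLET7A3 at chr22:46112749-46112822 (plus strand), both on GRCh38.p14. The match is a description of letters and not a measured binding site.
MIRLET7G: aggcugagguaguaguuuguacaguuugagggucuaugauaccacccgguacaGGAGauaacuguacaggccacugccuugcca
MIRLET7A3: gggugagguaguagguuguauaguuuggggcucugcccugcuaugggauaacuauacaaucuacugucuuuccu

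The complement of the seed, CTACCTC, was searched on the transcript strand of 3′UTRs in the GENCODE annotation of GRCh38, with 1 transcript per gene. It was present in 8.57% of 19141 protein-coding genes and in 8 of the 10 genes described here. Only 12 genes of the 19141 held 4 or more matches, and 4 of those were LIN28B, HMGA2, IGF2BP1 (4 matches each) and TRIM71 (6 matches, the most of any gene). LIN28A, HMGA1, IGF2BP2 and IGF2BP3 held 1 match each, and DIS3L2 and TUT4 none in these windows. Length plays into such counts, so each gene was set beside 3′UTRs within 10% of its own length. At least 1 match was present in 23.8% of 596 such UTRs for LIN28B, 15.4% of 924 for HMGA2, 32.1% of 318 for IGF2BP1 and 32.7% of 336 for TRIM71. As many matches as the gene, or more, were held by 0.336% for LIN28B, 0.108% for HMGA2, 0.943% for IGF2BP1 and 0.298% for TRIM71. The gene itself is counted in each of these shares. Matches of LIN28B, HMGA2, IGF2BP1 and TRIM71 are shown in DNA letters with 15 bases before and 1 after; the seed complement is in capitals, and a final a is the base that makes the strongest class of let-7 match.
LIN28B match 1: acccggttgcaaagtCTACCTCa
LIN28B match 2: tactgatgatagtaaCTACCTCt
LIN28B match 3: gtttacagcaaaaggCTACCTCa
LIN28B match 4: aaatgatggtgttgaCTACCTCt
HMGA2 match 1: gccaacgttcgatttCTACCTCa
HMGA2 match 2: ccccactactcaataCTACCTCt
HMGA2 match 3: ttgacttgcaaagacCTACCTCc
HMGA2 match 4: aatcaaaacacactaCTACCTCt
IGF2BP1 match 1: tgtgtgcgaagtaaaCTACCTCa
TRIM71 match 1: aacattgcttaagtcCTACCTCa

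The first LIN28B match lies at chr6:105078827-105078833, 44 bases into a 3′UTR of 4549, and the first HMGA2 match at chr12:65963313-65963319, 21 bases into a 3′UTR of 3003 (both plus strand). The IGF2BP1 match shown is at chr17:49051076-49051082 and the TRIM71 match at chr3:32891983-32891989, also on the plus strand. Of the matches, 2 of 4 in LIN28B, 1 of 4 in HMGA2, 3 of 4 in IGF2BP1 and 4 of 6 in TRIM71 are followed by an A.

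Of the 10 genes, 9 had enough reads for the fit across the table. By the call used for every gene (adjusted p under 0.05 in edgeR's quasi-likelihood test), 6 of these were lower and 3 higher with the KDM4A plasmid. Over all 17147 genes tested, 38.6% were called lower and 40.0% higher, 78.6% in all. The 2 groups of libraries did not overlap for any of the 9, as for 79.7% of all genes tested (39.3% lower and 40.4% higher with the plasmid). Of the 9, 3 were lower by at least 2-fold, which held for 13.6% of all genes, and 1 was higher by at least 2-fold, which held for 16.4%. TUT4, one of the 3, lay at the 2-fold limit, with a log2 fold change of -1.01. It ranged from -1.08 to -0.97 when 1 library was left out, so its place in that count depends on the libraries used. Since the choice of these genes used the same contrast, these counts are a description and not a test, and nothing is read from them. Their log2 fold changes ran from -1.86 to 1.55 with a median of -0.77, beside 0.03 for all genes tested. The 10 genes lie on 7 chromosomes.

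**Figure D1:**
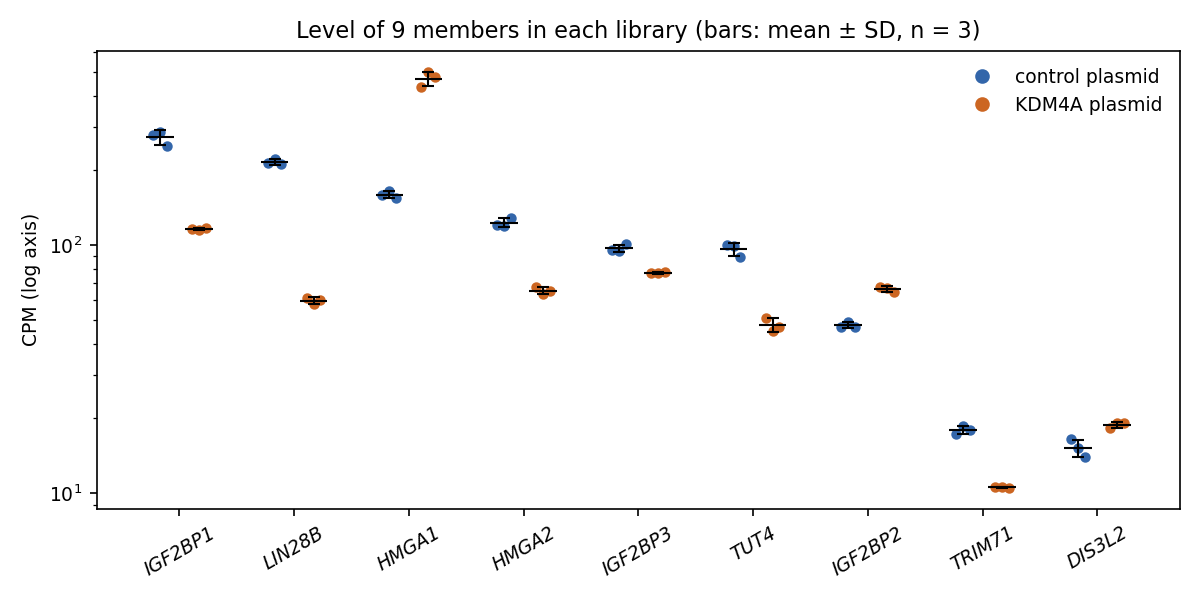
Level of each gene in CPM (log axis) in the 3 control and 3 KDM4A plasmid libraries; points are libraries and bars are means ± SD. LIN28A, at 0 in most libraries, is not drawn. LIN28B shows the widest gap, from a mean of 216 CPM to 59.7 CPM, while HMGA1 moves the other way, from 159.7 to 469 CPM.

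LIN28B (ENSG00000187772, chr6:104936616-105083332, plus strand, with locations on GRCh38.p13 per the file header) encodes a LIN28 paralogue. It stood at 213, 223 and 213 CPM in the 3 control libraries and at 61.3, 57.7 and 60.0 CPM in the 3 KDM4A plasmid libraries. The 3 libraries of a group lay close together, far from those of the other group. The means were 216 ± 5.40 and 59.7 ± 1.85 CPM (SD, n = 3 each), a log2 fold change of -1.86 (SE 0.05), the lowest of the 9.

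LIN28A (ENSG00000131914, chr1:26410817-26429728, plus strand), the other paralogue, was at the limit of detection and was not tested. No read was counted among 61146015 in the controls, which allows a level of up to 0.0491 CPM (3 counts of the summed total; the exact 95% interval reaches 0.0603). The KDM4A plasmid libraries held 0, 0 and 2 reads, or 0.0358 CPM of 55927527 summed counts (exact 95% interval 0.00433 to 0.129, counting error only). LIN28B therefore supplied 100% of the LIN28 transcripts in the controls and 99.9% with the plasmid, on the per-length scale of transcripts-per-million (TPM).

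TUT4 (ENSG00000134744, chr1:52408282-52553487, minus strand), the uridylyltransferase described above, measured 100.4, 98.7 and 89.2 CPM in the controls. With the KDM4A plasmid it measured 51.0, 45.1 and 46.7 CPM. All 3 control libraries were above all 3 others, with means of 96.1 ± 6.05 and 47.6 ± 3.06 CPM and a log2 fold change of -1.01 (SE 0.06). DIS3L2 (ENSG00000144535, chr2:231961245-232344350, plus strand), the exonuclease for uridylated precursors, measured 16.5, 15.1 and 14.0 CPM in the controls and 18.3, 19.1 and 19.2 CPM with the plasmid. The gap between the groups was smaller than for TUT4 and in the other direction, with a log2 fold change of 0.32 (SE 0.08). On the TPM scale its means were 10.5 ± 1.24 and 10.3 ± 0.445, which overlap, so a higher DIS3L2 level holds for CPM but not for TPM.

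TRIM71 (ENSG00000206557, chr3:32817997-32897824, plus strand), a ubiquitin ligase and mRNA repressor whose worm counterpart lin-41 is a classic let-7 target, was low in every library. It measured 17.3, 18.7 and 18.0 CPM in the controls and 10.6, 10.6 and 10.5 CPM with the plasmid. The means were 18.0 ± 0.672 and 10.6 ± 0.0594 CPM, a log2 fold change of -0.77 (SE 0.08). The plasmid libraries held 182, 251 and 149 reads, whose counting error is wider than the SD of that group.

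The HMGA genes moved in opposite directions. HMGA2 (ENSG00000149948, chr12:65824460-65966291, plus strand), an architectural protein that binds AT-rich DNA, measured 121, 119.7 and 129 CPM in the controls and 67.6, 63.4 and 65.2 CPM with the plasmid. Its means were 123 ± 5.16 and 65.4 ± 2.09 CPM, a log2 fold change of -0.91 (SE 0.06). HMGA1 (ENSG00000137309, chr6:34236873-34246231, plus strand), its paralogue with the same AT-hook motifs, measured 159, 165 and 155 CPM in the controls. With the plasmid it measured 434, 497 and 474 CPM, all far above the controls. Its log2 fold change was 1.55 (SE 0.06), the highest of the 9.

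The IGF2BP genes encode a family of proteins that bind mRNAs, many of them carrying m6A, and protect them from decay. IGF2BP1 (ENSG00000159217, chr17:48997385-49056145, plus strand) measured 279, 285 and 252 CPM in the controls and 116, 115 and 117 CPM with the plasmid. All controls were above all other libraries, and the log2 fold change was -1.23 (SE 0.06). IGF2BP3 (ENSG00000136231, chr7:23310209-23470491, minus strand) measured 95.1, 94.6 and 100.9 CPM in the controls and 76.8, 77.2 and 77.8 CPM with the plasmid, a log2 fold change of -0.33 (SE 0.05). IGF2BP2 (ENSG00000073792, chr3:185643130-185825042, minus strand), the member with the widest expression in adult tissue, measured 46.6, 49.1 and 46.8 CPM in the controls and 68.0, 67.3 and 64.7 CPM with the plasmid. Its log2 fold change was 0.49 (SE 0.05), so the family did not move as 1 block.

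Levels were compared between genes on the TPM scale, which divides counts by the deposited exon length. In the controls the order from the highest was HMGA1 (194 ± 14.6 TPM), LIN28B (92.5 ± 5.84), IGF2BP1 (72.1 ± 7.83), HMGA2 (69.5 ± 0.308), IGF2BP3 (52.7 ± 0.514), TUT4 (38.3 ± 4.04), IGF2BP2 (25.8 ± 1.67), DIS3L2 (10.5 ± 1.24), TRIM71 (4.81 ± 0.298) and LIN28A (0). IGF2BP1 and HMGA2 overlapped there, and the other neighbours in the order did not. With the KDM4A plasmid HMGA1 again led, at 449 ± 37.2 TPM, followed by IGF2BP3 (33.2 ± 0.729), HMGA2 (29.2 ± 0.535), IGF2BP2 (28.6 ± 0.566), IGF2BP1 (24.3 ± 0.541) and LIN28B (20.1 ± 0.430). TUT4 (14.9 ± 0.719 TPM), DIS3L2, TRIM71 (2.23 ± 0.0371) and LIN28A came last, and HMGA2 and IGF2BP2 overlapped. Among all tested genes, LIN28B stood at percentile 89.3 of TPM in the controls and 65.8 with the plasmid.

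Within the families, HMGA2 made up 26.5 ± 1.42% of HMGA transcripts in the controls and 6.14 ± 0.584% with the plasmid (TPM, n = 3 each). Summed HMGA transcripts went from 263 ± 14.9 to 478 ± 36.8 TPM. IGF2BP1 made up 47.8 ± 2.14% of IGF2BP transcripts in the controls and 28.2 ± 0.377% with the plasmid. The share of IGF2BP2 went from 17.1 ± 0.323% to 33.2 ± 0.749%, and that of IGF2BP3 from 35.1 ± 2.04% to 38.6 ± 0.387%. Summed IGF2BP transcripts went from 151 ± 9.93 to 86.1 ± 1.21 TPM.

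**Figure D2:**
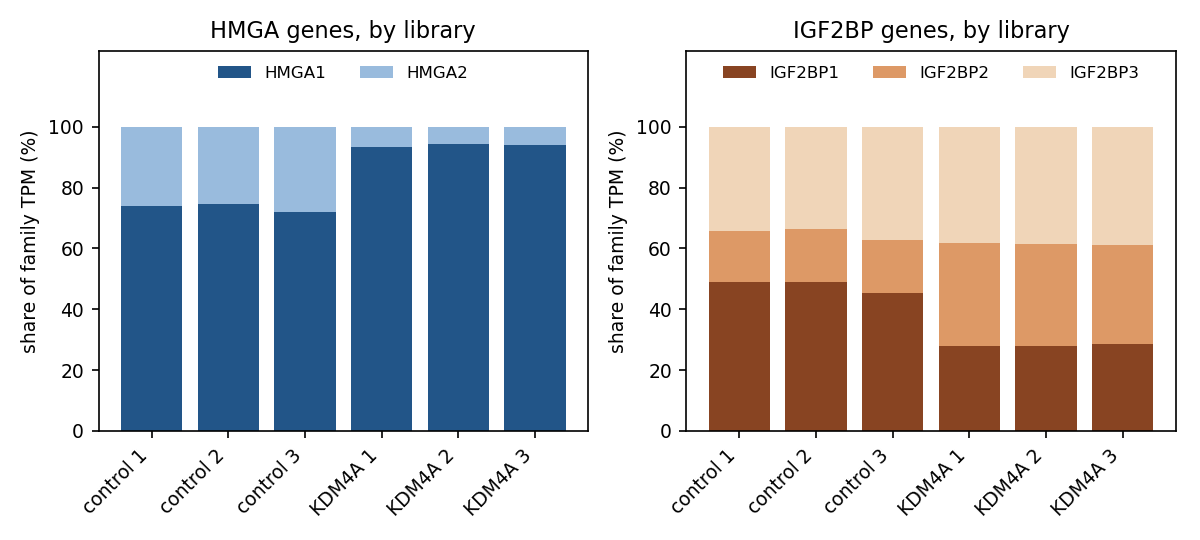
Share of each gene in its family's transcripts (percent of summed TPM), per library and group. HMGA1 goes from 73.5% to 93.9% of HMGA transcripts, and IGF2BP1 from the largest IGF2BP share (47.8%) to the smallest (28.2%).

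The genes around let-7 were then counted in the same fit, from lists drawn up with results of these data known. Each list count below stands beside 38.6% of all tested genes that fell and 40.0% that rose, with a median log2 of 0.03. Mature let-7 was not measured, since these are mRNA libraries. Of 20 let-7 precursor and host transcripts in the table, 6 had enough reads to test; 2 rose and 3 fell, with a median log2 fold change of -0.06. MIRLET7BHG, which hosts let-7a-3 and let-7b, rose from 0.343 ± 0.0796 to 6.40 ± 1.25 CPM (log2 4.21, SE 0.24, edgeR adjusted p = 3.5e-11). MIRLET7A1HG, the host of let-7a-1, rose from 7.61 ± 0.539 to 15.7 ± 1.03 CPM (log2 1.04, SE 0.10, edgeR adjusted p = 2.3e-08). MIR99AHG, the host of let-7c, fell from 9.73 ± 1.08 to 1.59 ± 0.136 CPM (log2 -2.61, SE 0.15, edgeR adjusted p = 3.0e-11). HUWE1, whose introns hold let-7f-2 and miR-98, fell from 572 ± 81.7 to 281 ± 12.98 CPM (log2 -1.02, SE 0.08, edgeR adjusted p = 1.1e-08). The host transcripts thus differed in direction from locus to locus.

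Among 20 microRNA processing and silencing factors, 13 fell, 3 rose and 4 did not pass the test, with a median log2 of -0.51. Of all tested genes, 38.6% fell and 40.0% rose. DICER1, the nuclease that cuts precursors to mature microRNAs, fell from 190.5 ± 18.7 to 73.5 ± 1.13 CPM (log2 -1.37, SE 0.07, edgeR adjusted p = 2.5e-12). AGO4, an Argonaute protein, fell from 47.4 ± 3.31 to 20.8 ± 0.952 CPM (log2 -1.19). TUT7, the close relative of TUT4, fell from 53.7 ± 2.31 to 30.8 ± 2.98 CPM (log2 -0.81, SE 0.07, edgeR adjusted p = 9.6e-09) and is named here with its values already known. The partner of DICER1, TARBP2, rose from 15.8 ± 1.56 to 25.2 ± 3.43 CPM (log2 0.68), and TRIM25, a cofactor of TUT4, from 64.6 ± 2.01 to 100.1 ± 1.91 CPM (log2 0.63).

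Of 27 further genes known as let-7 targets, 26 were tested, of which 18 fell, 6 rose and 2 did not pass, with a median log2 of -0.67. Of all tested genes, 38.6% fell and 40.0% rose. Log2 fold change also went down with exon length over all genes, with a trend of 0.21 at 1920 bases and -0.63 at 8796. The list counts were not adjusted for length, and its part in them was not tested. CCND2, a G1 cyclin, fell from 148 ± 1.92 to 43.8 ± 2.63 CPM (log2 -1.75, SE 0.06, edgeR adjusted p = 1.9e-14). ACVR1C, an activin receptor, fell from 6.19 ± 0.288 to 1.99 ± 0.478 CPM (log2 -1.68). DICER1 is on this list too. Against that direction, CCND1, a cyclin of the same family, rose from 35.7 ± 1.76 to 212 ± 4.59 CPM (log2 2.56, SE 0.06, edgeR adjusted p = 1.1e-16). THBS1, a matrix glycoprotein, rose from 3.65 ± 0.328 to 74.1 ± 0.908 CPM (log2 4.35, SE 0.08, edgeR adjusted p = 8.3e-18).

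Over the 13604 tested genes with an annotated 3′UTR, the members left out, the median log2 fold change went down with the number of let-7 seed matches. It was 0.07 for 12254 genes with 0 matches, -0.19 for 1206 with 1, -0.43 for 118 with 2 and -0.77 for 26 with 3 or more. The median 3′UTR length went up alongside, from 993.5 to 2573, 4659 and 6447.5 bases. Within bins of 3′UTR length, chosen after seeing the data, genes with and without a match were close. For 1 to 1000 bases the medians were 0.21 with a match and 0.30 without, for 1000 to 2000 bases 0.03 and 0.03, for 2000 to 4000 bases -0.21 and -0.24, and for 4000 to 8000 bases -0.54 and -0.48. A further 260 genes with a 3′UTR of 8000 bases or more, 120 of them with a match, were not binned. The bins pool genes with 1 or more matches, so they do not show those with 2 or with 3 or more apart. The part of length in the fall with the number of matches was not tested.

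**Figure D3:**
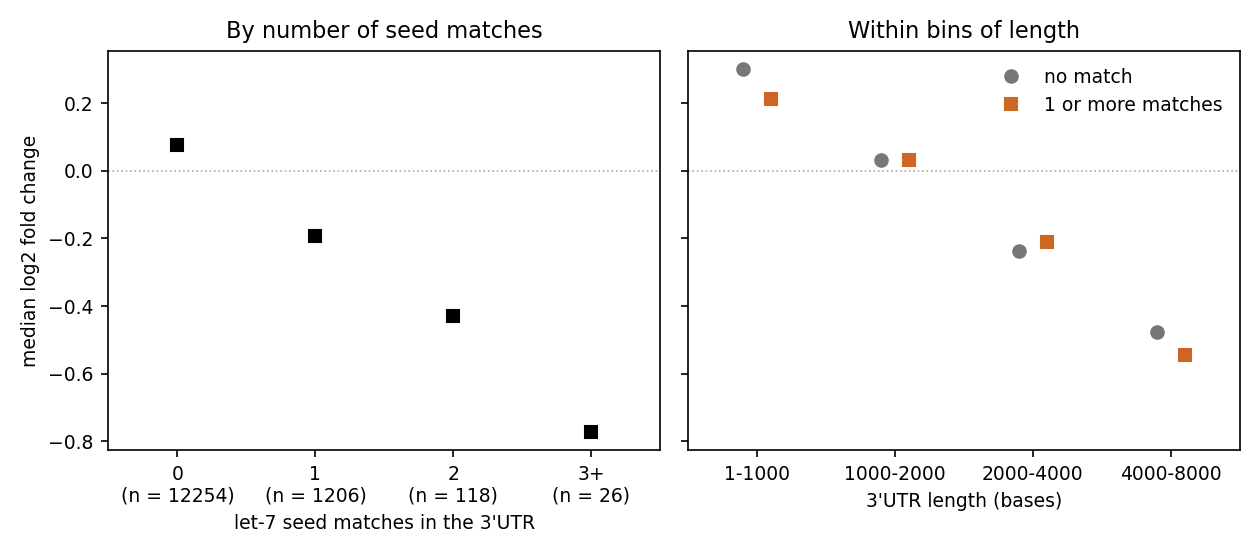
Median log2 fold change (KDM4A plasmid minus control) of tested genes with an annotated 3′UTR by number of let-7 seed matches in the 3′UTR (left) and, within bins of 3′UTR length, with and without a match (right). The median goes from 0.07 to -0.77 across the left panel, while the paired medians within a length bin lie close together (-0.54 and -0.48 in the longest).

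Exon length is a related measure. When the trend of log2 fold change on exon length over all genes was subtracted, an alternative added after seeing the data, LIN28B was at -1.51, HMGA2 at -0.74, TUT4 at -0.62 and IGF2BP1 at -0.60. IGF2BP3 was at -0.12 and TRIM71 at -0.15, nearer to 0 than before, and HMGA1 and IGF2BP2 were at 1.34 and 0.69. The 6 lower genes stayed below 0 and the 3 higher ones above it.

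The 15 m6A writers, erasers and readers, which set and read the mark that IGF2BP proteins bind, split into 9 that fell, 5 that rose and 1 that did not pass, with a median log2 of -0.20. YTHDC2, a reader with helicase activity, fell from 181 ± 5.75 to 81.0 ± 2.47 CPM (log2 -1.16, SE 0.05, edgeR adjusted p = 1.4e-12). FTO, a demethylase, fell from 61.8 ± 2.67 to 37.1 ± 1.02 CPM (log2 -0.74). The reader YTHDF1 rose from 85.6 ± 4.41 to 124 ± 6.69 CPM (log2 0.54) and WTAP, a subunit of the writer complex, from 120.0 ± 11.6 to 162 ± 1.82 CPM (log2 0.43).

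Known client mRNAs of the IGF2BP proteins did not follow 1 direction. Of 12, 11 were tested; 7 rose and 4 fell, with a median log2 of 0.51. H19, an imprinted long non-coding RNA, rose from 0.757 ± 0.268 to 17.5 ± 3.87 CPM (log2 4.51, SE 0.22, edgeR adjusted p = 1.9e-11), and CD44, a hyaluronan receptor, from 3.01 ± 0.00834 to 26.0 ± 0.368 CPM (log2 3.11, SE 0.10, edgeR adjusted p = 9.3e-15). CD44 had 57, 61 and 69 reads in the controls, whose counting error is wider than the SD of that group. MYC, a transcription factor whose mRNA IGF2BP1 stabilises, fell from 327 ± 14.6 to 195 ± 4.37 CPM (log2 -0.75), and MAPK4, a kinase, from 3.54 ± 0.327 to 1.20 ± 0.269 CPM (log2 -1.54). IGF2, the client that named the family, had 0 reads in the controls and 1, 2 and 0 reads with the plasmid, and was not tested.

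**Figure D4:**
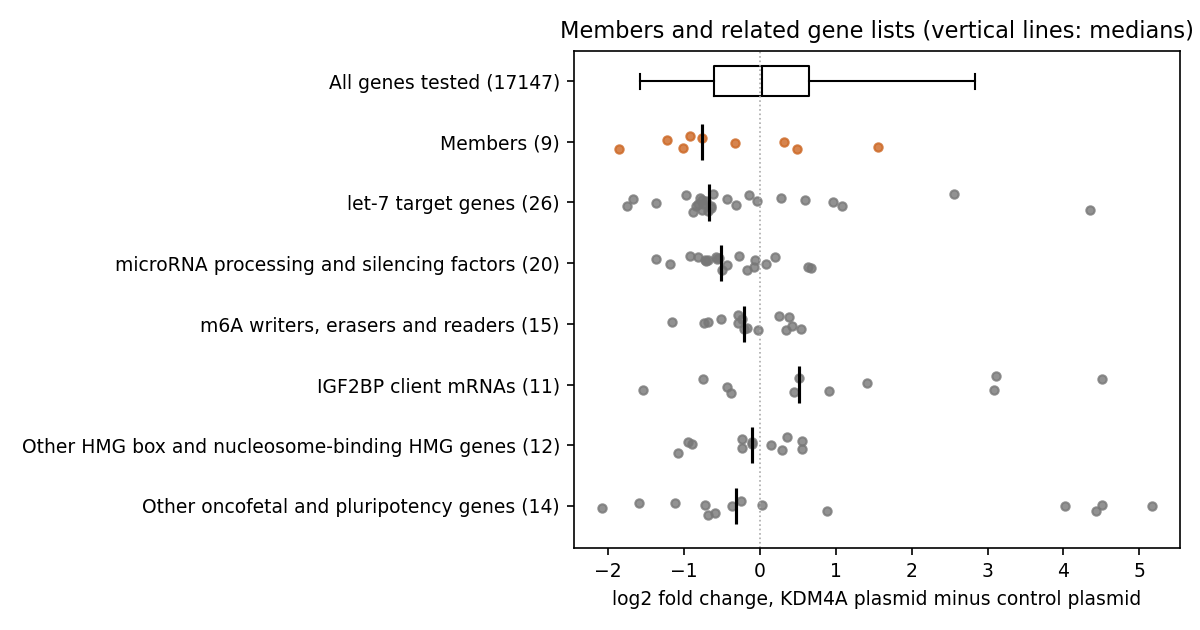
Log2 fold change (KDM4A plasmid minus control) of the 9 tested members and of 6 related lists, 1 point per gene, with vertical lines at list medians; the box for all 17147 genes spans the quartiles and its whiskers the percentiles 5 to 95. The let-7 target median is -0.67 and the IGF2BP client median 0.51, beside 0.03 for all genes.

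Of 12 other HMG genes in the test, 5 fell, 4 rose and 3 were not called (median log2 -0.10). The chromatin proteins HMGB1 and HMGN2 rose from 856 ± 98.2 to 1259 ± 49.7 CPM (log2 0.56) and from 554 ± 39.9 to 811 ± 38.1 CPM (log2 0.55). HMGN5 fell from 78.7 ± 20.9 to 40.7 ± 1.96 CPM (log2 -0.95). HMGB1 and HMGN2 have many near-identical processed copies in the genome, so their counts are uncertain.

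Among 24 other oncofetal and pluripotency genes, 14 were tested, of which 5 rose, 6 fell and 3 did not pass (median log2 -0.31). PLAG1, a zinc finger factor that activates IGF2, fell from 49.5 ± 1.64 to 11.7 ± 0.203 CPM (log2 -2.08, SE 0.07, edgeR adjusted p = 2.5e-14). SALL4, a factor of the early embryo and fetal liver, fell from 8.85 ± 0.723 to 2.90 ± 0.270 CPM (log2 -1.59, SE 0.13, edgeR adjusted p = 3.6e-09). POU5F1 rose from 0.0632 ± 0.0212 to 2.50 ± 0.363 CPM (log2 5.17, SE 0.37), but it has near-identical pseudogene copies and rested on 4 reads in the controls, so its value is uncertain. Genes of the same oncofetal class thus stood on both sides, as H19 and PLAG1 show.

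Within 500 kb LIN28B has 16 neighbours, 6 of them tested; 4 fell, 0 rose and 2 did not pass, beside 38.6% of all tested genes that fell and 40.0% that rose. With 6 genes, this count is given as a description of the locus. HACE1, a ubiquitin ligase, fell from 50.02 ± 1.86 to 15.04 ± 0.399 CPM (log2 -1.74, SE 0.07, edgeR adjusted p = 1.8e-13). BVES, a membrane protein of the Popeye family, fell from 28.9 ± 1.33 to 7.41 ± 0.304 CPM (log2 -1.96), its antisense gene BVES-AS1 from 2.85 ± 0.727 to 0.838 ± 0.241 CPM (log2 -1.78) and POPDC3 from 16.9 ± 1.56 to 11.2 ± 0.647 CPM (log2 -0.58). Without a stated strand setting, reads of BVES and BVES-AS1 cannot be told apart. The farther neighbour PREP, a peptidase, measured 58.2 ± 1.60 and 58.4 ± 0.428 CPM (log2 0.01, SE 0.05, edgeR adjusted p = 0.93).

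Around HMGA2, 25 neighbours included 6 that were tested, 4 of which fell and 2 rose. Of all tested genes, 38.6% fell and 40.0% rose, and with 6 genes this count too is only a description of the locus. HELB, a DNA helicase, fell from 7.06 ± 1.52 to 2.996 ± 0.561 CPM (log2 -1.25), and IRAK3, RBMS1P1 and LLPH-DT, all under 1 CPM in the control mean, had log2 fold changes of -2.72, -1.10 and -1.56. RBMS1P1 ranged from -1.74 to -0.82 when 1 library was left out, and lost its call in DESeq2, without control library 2 and without KDM4A plasmid library 2 or 3. LLPH-DT was at -2.37 without KDM4A plasmid library 1. LLPH rose from 23.3 ± 3.08 to 44.0 ± 0.899 CPM (log2 0.91) and TMBIM4 from 4.01 ± 0.242 to 8.34 ± 0.397 CPM (log2 1.06). Antisense and pseudogene rows of the members themselves, 14 in the table, all had too few reads to test. HMGA2-AS1 had 0, 0 and 0 reads in the controls and 3, 2 and 1 with the plasmid, and LIN28B-AS1 had 4, 1 and 5 reads and 1, 0 and 1.

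The genes whose pattern over the 6 libraries was most like that of LIN28B were BNC2, KCNQ5, POU3F2, ADAT2 and LSM11, by the root mean square difference of mean-centred log2 CPM among 12914 candidates. That difference was 0.0236 for BNC2 and 0.0359 for LSM11, and their log2 fold changes ran from -1.91 for BNC2 to -1.79 for ADAT2. KCNQ5, POU3F2 and ADAT2 lie on chromosome 6, as LIN28B does, BNC2 on chromosome 9 and LSM11 on chromosome 5. The genes most like HMGA2 were TCTN1 (0.0107), DNAJC24 (0.0181), LARP1B (0.0185), RAD51AP1 (0.0196) and PAX6 (0.0234). TCTN1 and RAD51AP1 lie on chromosome 12, as HMGA2 does, DNAJC24 and PAX6 on chromosome 11 and LARP1B on chromosome 4. The share of the 12914 candidates on each chromosome was not counted, so nothing is read from these locations.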

How the data were processed

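The deposited table holds raw counts per gene for 60664 genes, with exon lengths and GRCh38.p13 locations per the file header. HISAT2, HTSeq and GRCh38 are named in the submitters' processing notes; which versions and strand setting were used is not given in the sources used here. All 6 columns were matched by name, leaving 0 unmatched. Genes were kept by filterByExpr (minimum count 10; 17147 genes) and tested in R 4.3.3 with edgeR 4.0.16 (TMM, robust quasi-likelihood, no covariates, Benjamini-Hochberg over all tested genes, threshold 0.05). CPM used TMM-scaled totals; TPM used the deposited counts and exon lengths; SE is that of the log2 fold change. The members and lists were chosen with earlier results of these data known. Genes named are all members, KDM4A, the 2 largest rises and falls of each list (at least 1 CPM), markers, neighbours within 500 kb of LIN28B and HMGA2, and the 5 genes most like each (prior count 2); some genes this rule took are not reported here. Let-7 matches were searched in GENCODE v29 3′UTRs, using 1 transcript per gene; RefSeq GRCh38.p14 gave microRNA sequences. Alternatives were DESeq2 1.42.0, limma-voom 3.58.1, RLE factors, library size alone, a stricter filter (in 3 libraries, at least 1 CPM and 10 counts), no filter, a replicate block, a 2-fold test and leaving out each library. The fit was tested on simulated counts.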

Additional observations from a re-analysis of the deposited data

How the results depend on the processing

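The 9 members in the fit kept their direction under RLE factors, library size alone, no filter, the stricter filter, DESeq2, limma-voom and without each library. Without 1 library at a time, log2 fold changes lay between -1.88 and -1.83 for LIN28B and between 0.24 and 0.36 for DIS3L2. Without the exon length trend they were -1.51 for LIN28B, 1.34 for HMGA1, -0.74 for HMGA2, -0.60 for IGF2BP1, 0.69 for IGF2BP2, -0.12 for IGF2BP3, -0.62 for TUT4 and -0.15 for TRIM71. Libraries share only a replicate number: correlations of same-numbered deviations were -0.148, 0.0338 and -0.0913, and a replicate block left LIN28B at -1.86, with 6741 genes higher and 6501 lower. Tested against 2-fold, 2159 genes were higher and 1495 lower, against 6867 and 6613. With no filter, 1 antisense or pseudogene row was called higher. PREP, not called, changed sign under RLE factors (-0.00491), library size alone (-0.0408), DESeq2 (-0.00490), without control library 2 (-0.0139) and without control library 3 (-0.0198), and ranged from -0.0198 to 0.0167 without 1 library. Also not called, ENSG00000287616 ranged from -0.157 to 0.400 (below 0 without control library 1) and COL1A1 from -0.153 to 0.0266 (above 0 without KDM4A plasmid library 1). RBMS1P1 lost its call under DESeq2 (adjusted p = 0.058) and without control library 2 or KDM4A plasmid library 2 or 3 (edgeR adjusted p = 0.051 to 0.096), as did the kidney gene LHX1 without KDM4A plasmid library 2 (log2 -0.42, edgeR adjusted p = 0.059). The cause was not tested. Few reads limit LIN28A and the antisense and pseudogene rows.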

Other observations

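Other genes rich in let-7 seed matches, which were not on the member list, were also listed. NR6A1, an orphan nuclear receptor of the early embryo with 5 matches, fell from 37.6 ± 2.003 to 19.1 ± 0.626 CPM (log2 -0.98, SE 0.07). SMC1A, a cohesin subunit with 4 matches, fell from 564 ± 15.6 to 302 ± 4.81 CPM (log2 -0.90, SE 0.05), and FIGN, with 3, from 41.1 ± 2.79 to 8.28 ± 0.323 CPM (log2 -2.32, SE 0.08). STK24, a kinase with 3 matches, rose from 74.5 ± 4.87 to 199 ± 8.19 CPM (log2 1.42, SE 0.06). Of the 26 such genes with 3 or more matches, 19 fell and 6 rose in edgeR's test; these examples were chosen after their values were seen. Beside these counts, 38.6% of all tested genes fell and 40.0% rose. The median 3′UTR of the 26 is 6447.5 bases. Among genes with a 3′UTR of 4000 to 8000 bases, 64.8% of those without a match and 69.9% of those with one fell. The 3′UTRs of the 26 ran from 1707 bases (C14orf28) to 19693 (ARIH1), so that bin does not match all of them in length.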
